A study of Mus musculus with 12 samples.

Results

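The protein subunits of the oxidative phosphorylation system were taken as a group, because they are encoded by 2 genomes inside the same cell. Members were protein-coding genes of the table named as 1 of the 13 genes of the mitochondrial genome (*ND1* to *ND6*, *ND4L*, *COX1* to *COX3*, *ATP6*, *ATP8* and *CYTB*) or carrying the symbols of nuclear subunits (beginning with *Nduf* followed by a, b, c, s or v and a number, *Sdh* a to d, *Uqcr*, *Cox4* to *Cox8* followed by a, b or c, or *Atp5*). This rule found 99 members among 46731 genes, of which 13 were mitochondrial and 86 were nuclear. Pseudogenes with such names, 9 in all, were left out, and the rule does not take in *Cyc1*, *Cycs*, *Cox4i1* and *Cox4i2*, which are given separately near the end.

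The libraries came from ATDC5, an established mouse chondrogenic line that the labels describe as teratocarcinoma cells. Its control line carried a non-targeting short hairpin RNA (shRNA-NC, genotype wildtype in the labels), and its knockdown line carried a hairpin against *Ddx5*, a DEAD-box RNA helicase (shRNA-*Ddx5*). Both were stable lines made with lentivirus and selected with puromycin, so the control cells also held an integrated vector. Each line was sampled at 6 h, either without stimulation (medium) or with 5 ng/ml IL-1β plus 25 ng/ml TNF-α (cytokines), giving 4 groups of 3 libraries, and each group came from a single line. The question was how loss of *Ddx5* changes the transcriptome with and without an inflammatory stimulus, and, for the subunits, whether genome of origin and complex made a difference.

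Oxidative phosphorylation passes electrons from NADH and succinate through complexes I to IV of the inner mitochondrial membrane to oxygen, and complex V (ATP synthase) uses the resulting proton gradient to make ATP. Complex II is built from nuclear genes alone, whereas complexes I, III, IV and V each combine a few mitochondrially encoded subunits of the membrane core with a larger set of imported nuclear subunits. The mitochondrial genes are transcribed inside the organelle from both strands of the circular genome as long precursors that are then cut into separate mRNAs, while the nuclear genes each have their own promoter. Chondrocytes are known for drawing much of their ATP from glycolysis.

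Values were FPKM, fragments scaled to gene length and to library depth, and tests were made with limma on log2(FPKM + 1) over all 12368 genes with at least 1 FPKM in at least 3 libraries, calling a change at an adjusted p (Benjamini-Hochberg) under 0.05. The libraries held between 14119199 and 19276520 gene-assigned fragments. *Ddx5*, the check of the labels, was at 325, 337 and 294 FPKM in shRNA-NC in medium and at 90.7, 118 and 99.9 in shRNA-*Ddx5*, and the log2 change was −1.63 ± 0.10 (SE, limma adjusted p = 9.5e-07). With cytokines it was at 327, 302 and 301 against 101, 93.6 and 104, a log2 change of −1.63 ± 0.10 (SE, limma adjusted p = 9.1e-07). Of 10 chondrocyte markers, 6 had a mean under 1 FPKM, and the summed level of the 10 was 40.1–45.2 FPKM in shRNA-NC and 31.5–34.3 in shRNA-*Ddx5* in medium, and 13.04–18.3 against 10.6–10.7 with cytokines. On knockdown, 1 of the 4 tested rose and 1 fell in medium, and 1 rose and 2 fell with cytokines. Among all genes tested, 25.3% rose and 21.7% fell in medium, and 23.5% and 22.1% with cytokines. Of 12 markers of other cell types, 6 were at 0 in all 12 libraries, and the summed level of the 12 was 4.15–5.96 FPKM in shRNA-NC and 6.26–7.32 in shRNA-*Ddx5* in medium, and 8.94–10.6 against 5.74–6.86 with cytokines. This sum thus lay higher in the knockdown line in medium and lower with cytokines, without overlap. Of its members 2 were tested, of which *Tubb3*, a tubulin known from neurons, rose in medium (0.68 ± 0.16) and fell with cytokines (−0.60 ± 0.16, SE, limma adjusted p = 0.0053 and 0.010), with an interaction of −1.28 ± 0.23 (SE, limma adjusted p = 0.0063), and *Cd68*, a marker of macrophages, passed in none of these. The part of either marker level in the results was not tested. In cultures measured in bulk, a different mix of cells and a different amount of RNA per cell cannot be told apart. A pair of control libraries stood apart for these genes and are named where they matter. Replicate 1 of shRNA-NC with cytokines had the highest value of all 12 libraries for 5 of the 13 mitochondrial members. A knockdown library, replicate 3 of shRNA-*Ddx5* in medium, had the highest for 4. Replicate 3 of shRNA-NC in medium, the shallowest library, was low for several short nuclear members and the highest of the controls in medium for other short ones.

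Of the 99 members, 91 passed the filter, namely all 13 mitochondrial and 78 of the 86 nuclear ones. The 8 nuclear members that did not pass were *Cox7b2*, *Cox6b2* and *Cox8c*, listed at 0 in every library, and *Ndufs6b*, *Cox7a1*, *Cox8b*, *Ndufa4l2* and *Cox6a2*, none of which held more than 8 fragments in any library. Several of these are known as the forms of heart, skeletal muscle or testis. *ATP8* passed narrowly, with at least 1 FPKM in 4 libraries and 0 to 11 fragments per library.

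A long stretch of the mitochondrial genome has a nearly perfect copy in the nuclear genome, which bears on how the mitochondrial members can be counted. In the reference genome GRCm39, bases 6390 to 11042 of the mitochondrial chromosome aligned to chr1:24650616-24655269 on the minus strand over 4654 columns with 99.936% identity, differing by 2 substitutions and 1 gap. The substitution within *ND3* is T9461C, counted from the first base of the mitochondrial chromosome with the mitochondrial base first. These 41-base stretches, which begin before the start of *ND3* at 9459, are shown because they hold the only base of *ND3* that differs, in capitals.
Mitochondrial, chrM:9441-9481, plus strand: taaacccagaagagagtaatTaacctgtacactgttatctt
Nuclear copy, chr1:24652178-24652218, minus strand: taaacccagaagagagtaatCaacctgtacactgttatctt
The gap lies between *ND3* and *ND4L*, where the nuclear copy has 1 additional base in a run of the same base, in capitals below.
Mitochondrial, chrM:9809-9848, plus strand: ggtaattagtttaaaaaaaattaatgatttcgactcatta
Nuclear copy, chr1:24651810-24651850, minus strand: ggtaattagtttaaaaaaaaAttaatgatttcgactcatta

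All of *COX2*, *ATP8*, *ATP6*, *COX3*, *ND3* and *ND4L* lies inside this stretch, and 98.5% or more of the 150-base windows of each of these 6 genes had an exact nuclear copy. *COX1* lies inside it over 31.3% of its length and *ND4* over 63.6%. *ND1*, *ND2*, *ND5*, *ND6* and *CYTB* lie outside, and 0% of their windows had an exact copy. The 6 genes inside had mean levels of 0.923 to 91.2 FPKM over the 12 libraries, whereas the 5 genes outside had mean levels of 471 to 2972 FPKM and the 2 genes partly inside were at 749 and 5739 FPKM, so the level ranges of the genes inside and of the others did not overlap. How fragments that matched both places were counted is not given in the sources used here, and the part of this copy in the low values was not tested. Levels of mitochondrial members are therefore compared between groups for the same gene and not between genes of the organelle.

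**Figure D1:**
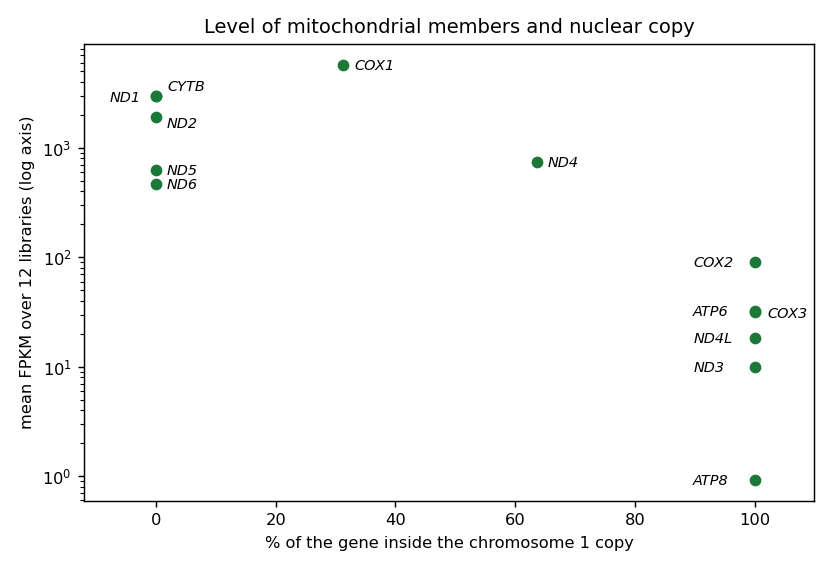
Mean FPKM over the 12 libraries (log axis) of each of the 13 mitochondrial members against the percentage of the gene lying inside the nuclear copy on chromosome 1. The 6 genes at 100% sit at 91.2 FPKM or lower, and the 5 genes at 0% sit at 471 FPKM or higher.

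Knockdown in medium raised 8 of the 13 mitochondrial members and lowered none. The count was 4 without replicate 3 of shRNA-*Ddx5* in medium, where the median log2 change was 0.47, and 3 with no filter on low values. It was 6 with each library scaled to its gene-assigned fragments. Among all genes tested, 25.3% rose and 21.7% fell in this comparison, 47.0% in either direction, so calls were common and the share of mitochondrial members called up has to be read against that. The median log2 change was 0.68 over the 13 members (0.45 under quantile normalization) and 0.03 over all genes tested. For 8 members every shRNA-*Ddx5* library was above every shRNA-NC library, against a background of 28.7% of genes tested.

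*CYTB*, the mitochondrial subunit of complex III, was at 2369.7, 2678 and 1288 FPKM in shRNA-NC and at 3420.4, 4087 and 4190.2 in shRNA-*Ddx5*. All 3 knockdown libraries lay above all 3 controls, of which replicate 3 was far the lowest. Its log2 change was 0.95 ± 0.26 (SE, limma adjusted p = 0.011). Of the complex I core subunits, *ND4* was at 597, 641 and 439 against 821, 1048 and 1185, a log2 change of 0.87 ± 0.20 (SE, limma adjusted p = 0.0040). *ND2* was at 1461, 1551 and 1300.5 against 2041, 2591 and 3047, a log2 change of 0.82 ± 0.23 (SE, limma adjusted p = 0.012). The groups did not overlap for either gene. *ND1* was at 2398, 2475 and 1512 against 3064, 3319 and 3823, again without overlap, and its log2 change was 0.70 ± 0.25 (SE, limma adjusted p = 0.040), although it passed the threshold in 11 of 24 alternative analyses. The call was lost without any library other than replicate 1 or 2 of shRNA-NC in medium or replicate 1, 2 or 3 of shRNA-NC with cytokines (log2 0.48 to 0.78, limma adjusted p 0.053 to 0.14). *ND3*, with 30 to 147 fragments per library, was at 5.99, 4.25 and 6.12 against 10.5, 10.3 and 11.2, a log2 change of 0.87 ± 0.28 (SE, limma adjusted p = 0.025). The call of *ND2* was lost without replicate 3 of shRNA-*Ddx5* in medium (0.68, limma adjusted p = 0.055), and that of *ND3* without replicate 2 of shRNA-NC in medium or replicate 1 or 3 of shRNA-*Ddx5* in medium (log2 0.72 to 0.88, limma adjusted p 0.055 to 0.092).

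*COX2* and *COX3* belong to the catalytic core of cytochrome *c* oxidase and *ATP6* to the proton channel of ATP synthase. *COX2* was at 55.1, 54.1 and 51.4 FPKM in shRNA-NC and at 79.5, 70.0 and 114 in shRNA-*Ddx5* in medium, a log2 change of 0.68 ± 0.16 (SE, limma adjusted p = 0.0056). *ATP6* was at 23.2, 20.3 and 22.0 against 30.9, 32.2 and 46.2, a log2 change of 0.69 ± 0.19 (SE, limma adjusted p = 0.010). *COX3* was at 19.9, 20.7 and 28.1 against 31.1, 31.2 and 39.4, a log2 change of 0.56 ± 0.20 (SE, limma adjusted p = 0.040). The groups did not overlap for any of the 3 genes, and *COX2* passed the threshold in all 24 alternatives, *ATP6* in 23 and *COX3* in 12, the last being lost without replicate 1 or 2 of shRNA-NC in medium, replicate 1, 2 or 3 of shRNA-*Ddx5* in medium or replicate 1 of shRNA-*Ddx5* with cytokines (log2 0.45 to 0.61, limma adjusted p 0.053 to 0.14). All 3 lie inside the stretch with the nuclear copy. The 6 genes inside it had a median log2 change of 0.62, with 4 of 6 called up, and the other 7 had a median of 0.70, with 4 of 7 called up. An unnamed locus of the table that spans the nuclear copy rose as well, by 0.73 ± 0.13 (SE, limma adjusted p = 9.9e-04).

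The 5 mitochondrial members that did not pass in medium were *COX1*, *ND5*, *ND6*, *ND4L* and *ATP8*. *COX1*, the subunit that holds the oxygen-reducing site, was at 5156, 5675 and 6408 FPKM against 6066, 6942 and 7751, and its log2 value was 0.27 ± 0.21 (SE, limma adjusted p = 0.33). *ND5* had a log2 value of 0.35 ± 0.18 (SE). *ND6*, the only mRNA of the organelle read from the opposite strand, was at 458, 627 and 380.2 against 386, 509 and 559, with a 95% confidence interval of the log2 difference of −0.47 to 0.47. The groups of these 3 genes overlapped. *ND4L* spread widely, at 10.9, 9.45 and 36.3 in the controls, and *ATP8* was too sparse to show a change of this size. *ND5* and *ND6*, *ATP8* and *ATP6*, *ATP6* and *COX3*, and *ND4L* and *ND4* share bases, and since the library protocol does not state that strand was kept, fragments from shared bases cannot be assigned to either gene with certainty.

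With cytokines, knockdown moved none of the 13 mitochondrial members past the threshold in limma, and 0 of 13 had an unadjusted p under 0.05. Voom precision weights, tried after the data had been seen, likewise gave 0. Among all genes tested, 23.5% rose and 22.1% fell in this comparison, 45.6% in either direction. The median log2 value was −0.19 over the 13 members (−0.41 after the length correction and −0.30 without replicate 3 of shRNA-NC with cytokines) and 0.01 over all genes tested. *CYTB* was at 3552, 2574 and 2158 FPKM in shRNA-NC and at 3036, 3263 and 3044 in shRNA-*Ddx5*, with a 95% interval of the log2 difference of −0.36 to 0.77. *ND1* was at 5491, 2914 and 2917 against 2386, 2659 and 2399, with an interval of −1.10 to 0.02. All 3 knockdown libraries thus lay below all 3 controls for *ND1*, the only 1 of the 13 members without overlap here. The share of all genes tested without overlap in this direction was not counted. In both genes the highest of the 6 values was that of replicate 1 of shRNA-NC with cytokines. Without that library the median over the 13 members was 0.02 and again none passed. With replicate 3 of shRNA-NC in medium left out as well, *CYTB* rose by 0.40 on the log2 scale (limma adjusted p = 0.036). Members fell in 3 other alternatives, *COX2* under quantile normalization (−0.46, limma adjusted p = 0.027), *COX2* and *ND1* after the length correction (−0.51 and −0.72, limma adjusted p = 0.030 and 0.040), and *ND3* without replicate 3 of shRNA-NC with cytokines (−0.68, limma adjusted p = 0.047).

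**Figure D2:**
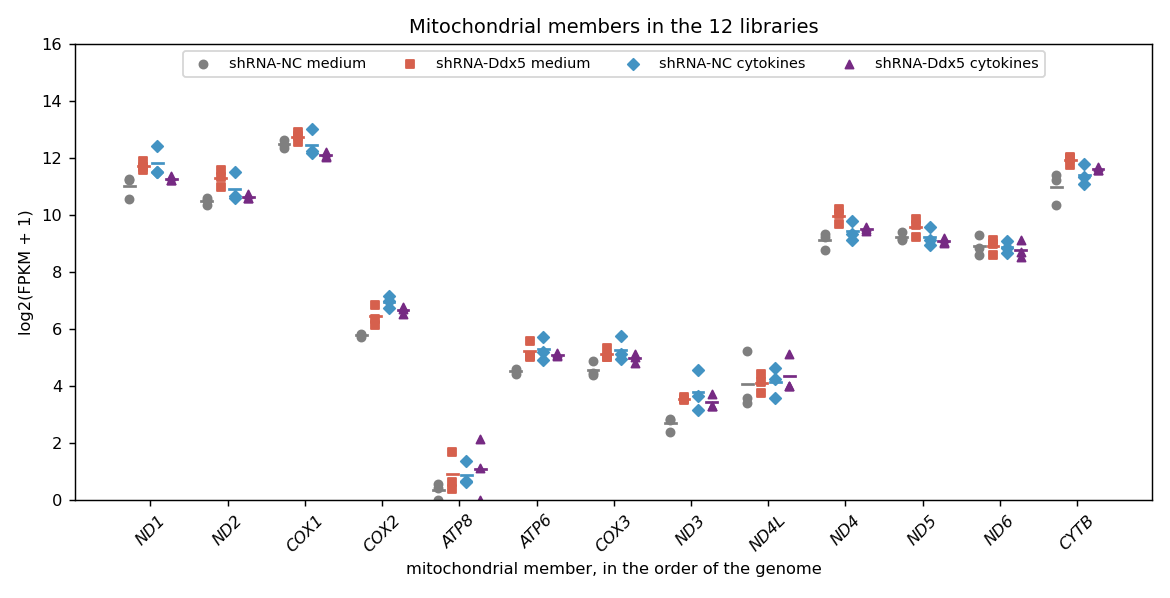
Expression of the 13 mitochondrial members as log2(FPKM + 1), in genome order, with 1 point per library for the 4 groups and a line at each group mean. In medium, 8 members had all 3 shRNA-*Ddx5* points above all 3 shRNA-NC points, and with cytokines the point of replicate 1 of shRNA-NC was the highest of the 12 libraries for 5 members.

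The difference between the knockdown changes with and without cytokines (interaction) was negative for 12 of the 13 mitochondrial members, from −1.24 to −0.09, with *ND4L* the exception at 0.18. Of the 91 members *COX2* alone passed the threshold, at −0.98 ± 0.23 (SE, limma adjusted p = 0.025) and a 95% interval of −1.48 to −0.47, against 8.21% of all genes tested. It was lost without replicate 2 of shRNA-NC in medium, replicate 1 or 3 of shRNA-NC with cytokines or replicate 2 or 3 of shRNA-*Ddx5* with cytokines (log2 −1.0 to −0.87, limma adjusted p 0.052 to 0.072). The call was also lost with no filter on low values and without both control libraries that stood apart (−0.85, limma adjusted p = 0.074 for the latter). With cytokines *COX2* was at 142, 106 and 123 FPKM in shRNA-NC and at 107, 103 and 89.7 in shRNA-*Ddx5*, so that all 6 libraries with cytokines lay above 2 of the 3 knockdown libraries in medium. *ND1*, *ND2* and *ATP6* were close to the threshold, with limma adjusted p of 0.058, 0.062 and 0.065. The same 12 libraries enter the value of every gene, so the 13 values are not independent.

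Summed over the 13 members, mitochondrial mRNAs took 1.78%, 1.97% and 1.71% of all fragments in shRNA-NC in medium and 2.06%, 2.51% and 2.70% in shRNA-*Ddx5*. The means were 1.82% ± 0.135 (SD, n = 3) and 2.42% ± 0.326 (SD, n = 3), and the groups did not overlap. With cytokines the shares were 2.74%, 1.77% and 1.62% in shRNA-NC and 1.58%, 1.71% and 1.58% in shRNA-*Ddx5*. The means were 2.05% ± 0.607 (SD, n = 3) and 1.62% ± 0.0730 (SD, n = 3), and the groups overlapped, with replicate 1 of shRNA-NC well above the other 5 libraries. The nuclear members summed to 0.848% ± 0.0449 in shRNA-NC and 1.04% ± 0.107 in shRNA-*Ddx5* in medium, and to 0.834% ± 0.0409 and 1.07% ± 0.0472 with cytokines (SD, n = 3 each). The nuclear share was thus higher in the knockdown line in both media, without overlap, and the mitochondrial share in medium. The share is a sum over chosen genes and was not tested.

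**Figure D3:**
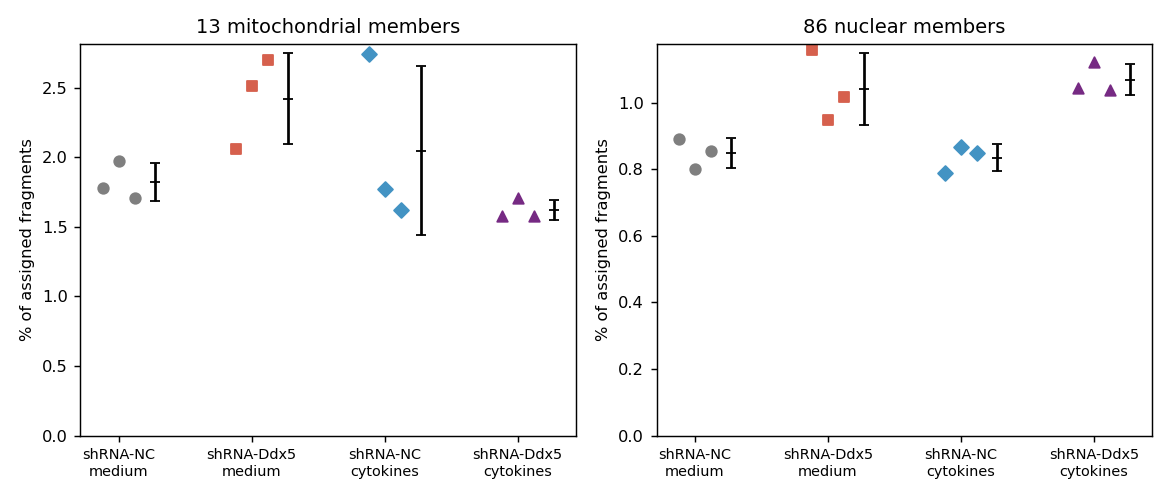
Percentage of all gene-assigned fragments taken by the 13 mitochondrial members and by the nuclear members in each library, with the group mean and SD (n = 3). The nuclear share is higher in shRNA-*Ddx5* in both media (1.04% against 0.848% and 1.07% against 0.834%), while the mitochondrial share is higher without overlap in medium (2.42% against 1.82%) and overlaps with cytokines (1.62% against 2.05%).

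The mean of log2(FPKM + 1) over the mitochondrial members exceeded that over the tested nuclear members by 1.21 ± 0.138 in shRNA-NC and 1.40 ± 0.400 in shRNA-*Ddx5* in medium (SD, n = 3 each). With cytokines the excess was 1.57 ± 0.380 in shRNA-NC and 0.96 ± 0.128 in shRNA-*Ddx5*. The knockdown difference of this excess was therefore 0.18 in medium, smaller than the spread between libraries, and −0.61 with cytokines.

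Of the ribosomal RNAs of the organelle, which are no members, *mt-Rnr2* rose in medium by 0.90 ± 0.22 (SE, limma adjusted p = 0.0067) and had a value of −0.10 with cytokines, and *mt-Rnr1* had a value of 0.03 in medium and fell with cytokines, at −0.80 ± 0.23 (SE, limma adjusted p = 0.014). Libraries were made from RNA selected on poly-T beads, so these RNAs were not the targets of the selection.

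Knockdown raised 42 of the 78 tested nuclear members in medium and 45 with cytokines, against a background of 25.3% and 23.5% of all genes, and lowered 1 member, *Cox7a2l*, in each. The median log2 change was 0.40 in medium and 0.47 with cytokines, against 0.20 and 0.29 under quantile normalization and 0.26 and 0.30 after the trend with gene length had been removed. Without replicate 2 of shRNA-NC in medium 27 nuclear members rose in medium, and leaving out other single libraries gave 29 to 43. With cytokines the count was 30 without replicate 2 of shRNA-*Ddx5* with cytokines and 34 to 54 without any other library. Raised in both media were 37 members, which is 88.1% of those raised in medium and 82.2% of those raised with cytokines, and 28 were raised in neither. The same overlap was not counted over all genes tested, so these shares cannot be read as particular to the members. Every shRNA-*Ddx5* library was above every shRNA-NC library for 36 members in medium (background 28.7%) and for 63 with cytokines (background 31.7%). No nuclear member passed the interaction threshold. The comparisons share no library, although the fit gave them a shared estimate of the spread. Under quantile normalization 24 nuclear members rose and 5 fell in medium, and 29 rose and 1 fell with cytokines. With each library scaled to its gene-assigned fragments, 30 rose and 2 fell in medium (median 0.30). The same scaling gave 39 up and 1 down with cytokines (median 0.41).

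**Figure D4:**
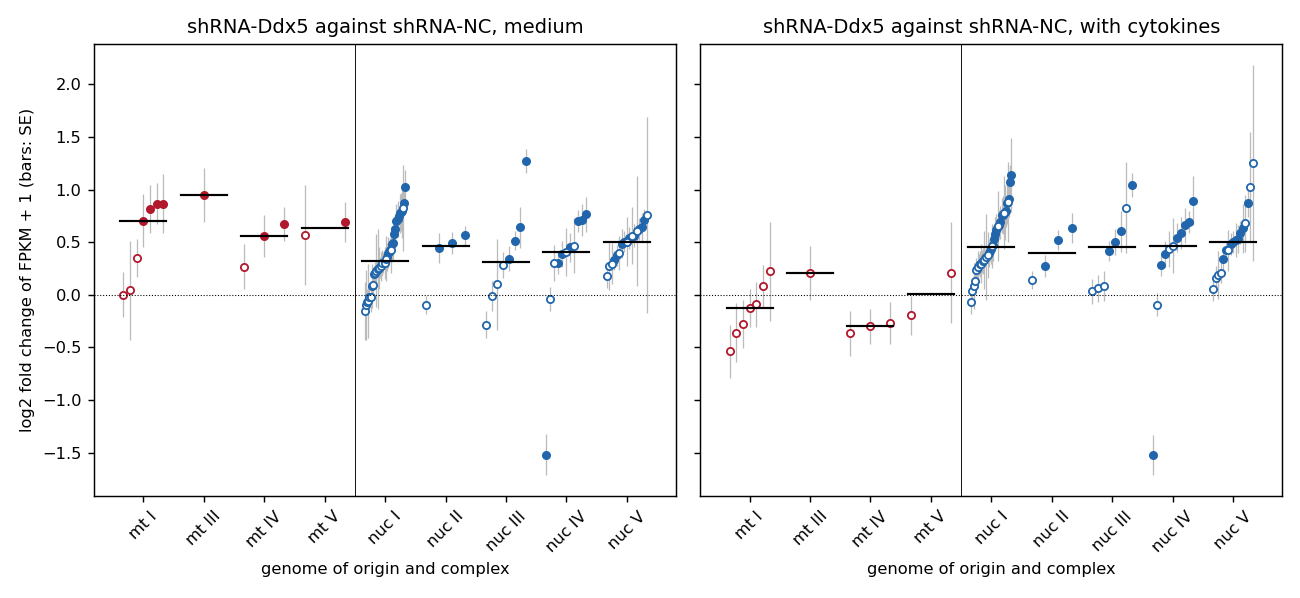
Log2 change on knockdown with its SE for each tested member, by genome of origin and complex, in medium and with cytokines. Filled points passed the threshold and black lines mark medians, which were 0.68 for the mitochondrial and 0.40 for the nuclear members in medium, and −0.19 and 0.47 with cytokines.

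The rise was spread over all 5 complexes. Of complex I, 20 of 38 tested nuclear members rose in medium and 22 with cytokines, with medians of 0.32 and 0.45. Of complex II, 3 of 4 rose in both media, with medians of 0.47 and 0.40. Of complex III, 4 of 8 rose in both, with medians of 0.31 and 0.46. Of complex IV, including *Ndufa4*, which is now placed in that complex, and *Cox7a2l*, 6 of 11 rose in medium and 7 with cytokines, with medians of 0.41 and 0.46. Of complex V, 9 of 17 rose in both, with medians of 0.51 and 0.50. No complex was tested against another.

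In complex I, which takes electrons from NADH, the largest rise in medium was that of *Ndufb2*, an accessory subunit of the membrane arm. It was at 21.7, 18.5 and 19.0 FPKM in shRNA-NC and at 44.0, 36.8 and 42.8 in shRNA-*Ddx5* in medium, and at 16.5, 27.03 and 24.3 against 49.4, 51.9 and 42.5 with cytokines. The knockdown libraries were all above the controls in both media, with log2 changes of 1.02 ± 0.16 (SE, limma adjusted p = 3.3e-04) and 1.07 ± 0.16 (SE, limma adjusted p = 2.4e-04). *Ndufb7*, the most abundant nuclear member of the complex, was at 92.8, 88.9 and 60.9 against 180.4, 121 and 121 in medium and at 85.5, 105 and 97.9 against 157, 170.1 and 159.6 with cytokines. Its groups did not overlap either, and it rose by 0.79 ± 0.18 and 0.75 ± 0.18 (SE, limma adjusted p = 0.0040 and 0.0053). *Ndufa2*, an accessory subunit of the matrix arm, gave the largest rise with cytokines, but from controls that spread widely, at 30.9, 83.6 and 85.6 in shRNA-NC against 136, 149 and 121 in shRNA-*Ddx5*, a log2 change of 1.14 ± 0.35 (SE, limma adjusted p = 0.020). In medium the groups overlapped, and the log2 value was −0.06 ± 0.35 (SE). Its rise with cytokines was lost without replicate 1 of shRNA-NC with cytokines or replicate 1 or 2 of shRNA-*Ddx5* with cytokines (log2 0.66 to 1.13, limma adjusted p 0.051 to 0.064).

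Complex II, succinate dehydrogenase, also serves the tricarboxylic acid cycle. Its membrane anchor *Sdhc* was at 45.8, 44.5 and 55.5 FPKM in shRNA-NC and at 73.1, 66.4 and 76.8 in shRNA-*Ddx5* in medium, and at 44.7, 44.5 and 40.5 against 60.2, 64.5 and 62.1 with cytokines. The groups did not overlap in either medium, and the log2 changes were 0.56 ± 0.09 (SE, limma adjusted p = 5.9e-04) and 0.52 ± 0.09 (SE, limma adjusted p = 0.0010). The other anchor, *Sdhd*, was at 77.7, 65.5 and 55.2 against 107, 74.4 and 89.2 in medium, where the groups overlapped, and at 66.9, 79.3 and 71.9 against 112, 117 and 111 with cytokines, where they did not. Its log2 changes were 0.44 ± 0.14 (SE, limma adjusted p = 0.024) and 0.64 ± 0.14 (SE, limma adjusted p = 0.0037), the first of which was lost without replicate 2 or 3 of shRNA-NC in medium or replicate 1 or 3 of shRNA-*Ddx5* in medium (log2 0.31 to 0.44, limma adjusted p 0.058 to 0.093). *Sdhb*, the iron-sulfur subunit, rose by 0.49 ± 0.10 and 0.27 ± 0.10 (SE, limma adjusted p = 0.0024 and 0.048), the second being lost without any library other than replicate 2 or 3 of shRNA-NC in medium, replicate 1 of shRNA-*Ddx5* in medium or replicate 3 of shRNA-*Ddx5* with cytokines (log2 0.21 to 0.29, limma adjusted p 0.054 to 0.18). *Sdha*, the flavoprotein, did not pass, with log2 values of −0.10 and 0.14.

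In complex III, *Uqcrfs1*, the Rieske iron-sulfur protein that is added late in assembly, gave the largest rise of any nuclear member in medium. The gene lies at chr13:30724295-30729299 on the minus strand. It was at 139, 139 and 119 FPKM in shRNA-NC and at 361, 287 and 317 in shRNA-*Ddx5* in medium, and at 152, 185 and 162 against 336, 366 and 328 with cytokines. The knockdown libraries were all above the controls, and the log2 changes were 1.27 ± 0.11 (SE, limma adjusted p = 8.0e-06) and 1.04 ± 0.11 (SE, limma adjusted p = 2.8e-05), past the threshold in 24 of 24 alternatives in both media. *Uqcr10*, a small subunit and the most abundant nuclear member of the complex, was at 242, 214 and 239 against 356, 246 and 289 in medium and at 235, 231 and 226 against 309.9, 350.2 and 321 with cytokines. It rose by 0.34 ± 0.12 and 0.50 ± 0.12 (SE, limma adjusted p = 0.036 and 0.0059). The first was lost without replicate 1 or 2 of shRNA-NC in medium, replicate 1 or 3 of shRNA-*Ddx5* in medium or replicate 3 of shRNA-*Ddx5* with cytokines (log2 0.21 to 0.38, limma adjusted p 0.051 to 0.12).

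In complex IV the only member that fell was *Cox7a2l*, at chr17:83809346-83821762 on the minus strand, whose product is known as a factor that joins complexes III and IV into a supercomplex. It was at 109, 101 and 183 FPKM in shRNA-NC and at 44.2, 39.9 and 46.6 in shRNA-*Ddx5* in medium, and at 144, 102 and 121 against 41.4, 41.7 and 41.4 with cytokines. The knockdown libraries lay in a narrow band below every control library. The log2 changes were −1.52 ± 0.19 (SE, limma adjusted p = 9.5e-05) and −1.52 ± 0.19 (SE, limma adjusted p = 8.9e-05), of a size near that of *Ddx5* itself, and they passed in 24 of 24 alternatives in both media. *Cox7a2*, its close relative and the form of the complex IV subunit used in most tissues, moved the other way, from 41.2, 43.4 and 53.2 to 80.3, 70.0 and 74.2 FPKM in medium and from 37.6, 43.2 and 37.2 to 60.6, 67.5 and 63.5 with cytokines. Its groups did not overlap, and its log2 changes were 0.70 ± 0.10 (SE, limma adjusted p = 2.9e-04) and 0.69 ± 0.10 (SE, limma adjusted p = 3.1e-04). In shRNA-NC *Cox7a2l* was therefore the higher of the pair per unit length and in shRNA-*Ddx5* the lower, in both media.

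*Cox8a*, a small accessory subunit, gave the largest rise of complex IV in medium. It was at 321, 241 and 210.2 FPKM against 495, 372 and 436 in medium and at 288, 332 and 377 against 515, 571 and 484 with cytokines, with log2 changes of 0.77 ± 0.16 (SE, limma adjusted p = 0.0029) and 0.66 ± 0.16 (SE, limma adjusted p = 0.0070). *Cox5b*, a regulatory subunit on the matrix side, gave the largest with cytokines, at 92.3, 124 and 127 against 211, 226 and 199 and a log2 change of 0.90 ± 0.23 (SE, limma adjusted p = 0.0079), while in medium its groups overlapped and its log2 value was 0.41 ± 0.23 (SE). *Cox6a1*, the most abundant nuclear member of the complex, was at 519, 456 and 347 against 803, 633 and 705 in medium and at 424, 516 and 499.6 against 704, 785 and 677 with cytokines. It rose by 0.71 ± 0.15 and 0.59 ± 0.15 (SE, limma adjusted p = 0.0029 and 0.0083), without overlap in either medium.

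In complex V, *Atp5b*, the catalytic β subunit of the F1 head, was the most abundant nuclear member of all. It was at 686, 629.7 and 692 FPKM in shRNA-NC and at 941, 777 and 890.4 in shRNA-*Ddx5* in medium, a log2 change of 0.37 ± 0.10 (SE, limma adjusted p = 0.011). With cytokines it was at 791, 709 and 721 against 849, 910.1 and 812, without overlap, but the log2 value of 0.21 ± 0.10 (SE, limma adjusted p = 0.11) did not pass. *Atp5md*, a small membrane subunit, gave the largest rise of the complex in medium, from 243, 225 and 226 to 411, 344 and 385, and rose with cytokines from 292, 239 and 249.6 to 343, 399 and 349.8. Its log2 changes were 0.71 ± 0.11 (SE, limma adjusted p = 2.7e-04) and 0.49 ± 0.11 (SE, limma adjusted p = 0.0031). *Atp5g1*, for the c subunit of the membrane ring, gave the largest with cytokines, from 80.1, 102 and 90.7 to 172, 177 and 151, and in medium went from 100.1, 80.7 and 111 to 166, 136 and 154. Both changes passed, at 0.87 ± 0.13 (SE, limma adjusted p = 3.2e-04) and 0.65 ± 0.13 (SE, limma adjusted p = 0.0022) respectively.

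**Figure D5:**
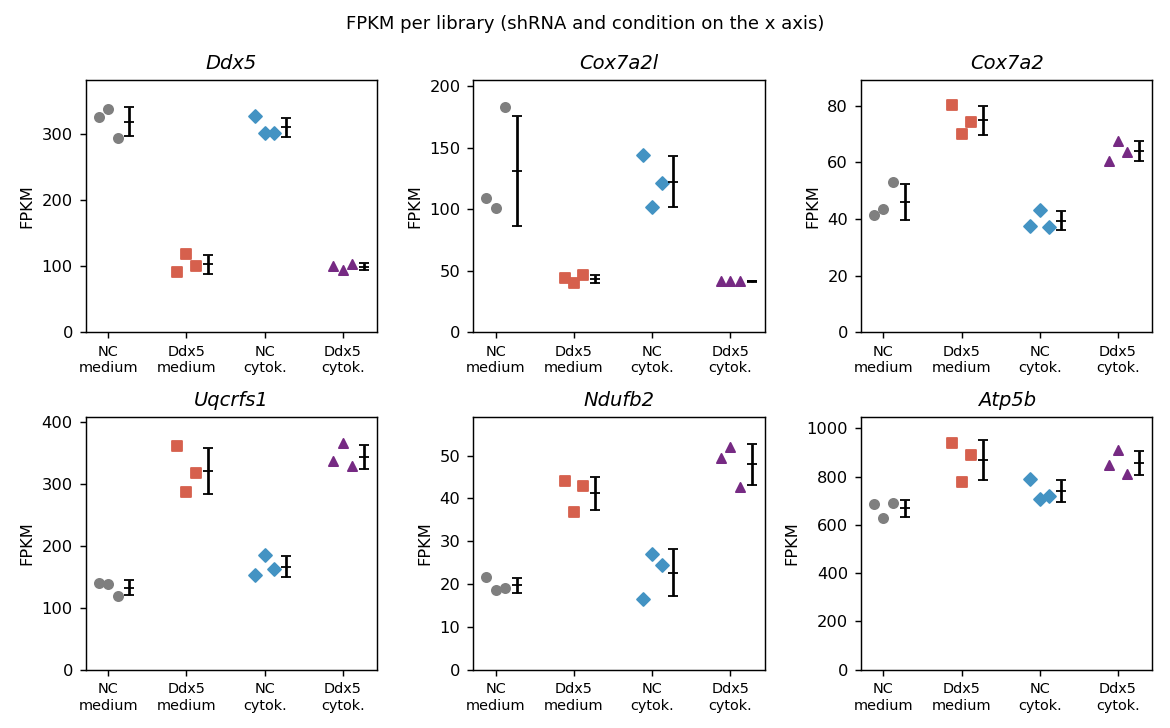
FPKM in each library of *Ddx5* and of 5 nuclear members, with the group mean and SD (n = 3). *Cox7a2l* is lower in both shRNA-*Ddx5* groups at 39.9 to 46.6 FPKM against 101 to 183 in shRNA-NC, whereas *Cox7a2*, *Uqcrfs1* and *Ndufb2* are higher there in both media and *Atp5b* does not overlap between the lines in either medium.

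Several subunits exist in more than 1 form, encoded by separate genes. Of the *Cox7a* family, *Cox7a1*, the heart and muscle form, had at most 6 fragments in a library and was at 0 in 6 libraries. *Cox6a2*, *Cox8b* and *Ndufa4l2* likewise held at most 3, 3 and 4 fragments, and *Cox6b2*, *Cox7b2* and *Cox8c* none in any library. ATDC5 cells thus expressed *Cox6a1*, *Cox6b1*, *Cox7b*, *Cox8a* and *Ndufa4* with little or no detected partner. *Cox7b* rose by 0.39 ± 0.12 and 0.39 ± 0.12 (SE, limma adjusted p = 0.022 and 0.024). *Ndufa4* rose by 0.30 ± 0.10 and 0.28 ± 0.10 (SE, limma adjusted p = 0.032 and 0.045). In medium the call of *Cox7b* was lost without replicate 2 or 3 of shRNA-NC in medium or replicate 1 of shRNA-*Ddx5* in medium (log2 0.27 to 0.38, limma adjusted p 0.058 to 0.080) and that of *Ndufa4* without replicate 1 or 2 of shRNA-NC in medium or replicate 1 or 3 of shRNA-*Ddx5* in medium (log2 0.23 to 0.32, limma adjusted p 0.050 to 0.11). With cytokines they were lost without replicate 2 or 3 of shRNA-NC with cytokines or replicate 2 of shRNA-*Ddx5* with cytokines (log2 0.35 to 0.39, limma adjusted p 0.056 to 0.083) and without any library other than replicate 3 of shRNA-NC in medium, replicate 1 or 2 of shRNA-*Ddx5* in medium or replicate 1 of shRNA-NC with cytokines (log2 0.25 to 0.31, limma adjusted p 0.053 to 0.12). *Cox6b1* did not pass, with log2 values of 0.47 ± 0.26 and 0.46 ± 0.26 (SE). The c subunit of ATP synthase is made from 3 genes that give the same mature protein. *Atp5g2* was at 227 FPKM on average, *Atp5g3* at 139 and *Atp5g1* at 127, and only *Atp5g1* passed in both media. *Atp5g2* had values of 0.51 ± 0.23 and 0.63 ± 0.23 (SE), of which the second passed (limma adjusted p = 0.047) and was lost without any library other than replicate 1, 2 or 3 of shRNA-NC in medium or replicate 1 of shRNA-*Ddx5* in medium (log2 0.52 to 0.69, limma adjusted p 0.053 to 0.14). *Atp5g3* had values of 0.56 ± 0.27 and 0.68 ± 0.27 (SE), and neither passed. A difference between these 3 genes was not tested. *Ndufb4b* and *Ndufb4c* have transcripts 99.1% and 99.6% identical to that of *Ndufb4*, so their values are uncertain.

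Cytokines on their own changed few nuclear members. In shRNA-NC they raised 4 of 78 and lowered 2, against 18.6% and 15.2% of all genes tested, and in shRNA-*Ddx5* they raised 8 and lowered 1, against 13.5% each way. Of the mitochondrial members they raised 5 in shRNA-NC (*ND1*, *ND3*, *COX2*, *COX3* and *ATP6*) and lowered 2 in shRNA-*Ddx5* (*ND2* and *COX1*). *COX2* gave the largest of these, from 55.1, 54.1 and 51.4 FPKM in medium to 142, 106 and 123 with cytokines in shRNA-NC, a log2 change of 1.18 ± 0.16 (SE, limma adjusted p = 2.6e-04), whereas in shRNA-*Ddx5* its value was 0.21 ± 0.16 (SE). Of the 5 genes raised in shRNA-NC, 4 lie inside the stretch with the nuclear copy. *ND1* rose by 0.79 ± 0.25 (SE, limma adjusted p = 0.033) and its call was lost without replicate 3 of shRNA-NC in medium or replicate 1 of shRNA-NC with cytokines (log2 0.49 to 0.56, limma adjusted p 0.097 to 0.11). The call of *COX3* was lost without replicate 1 or 2 of shRNA-NC in medium or replicate 1 of shRNA-NC with cytokines (log2 0.45 to 0.63, limma adjusted p 0.059 to 0.069). In shRNA-*Ddx5*, the call of *COX1* was lost without any library other than replicate 3 of shRNA-NC in medium, replicate 1 of shRNA-*Ddx5* in medium or replicate 1, 2 or 3 of shRNA-NC with cytokines (log2 −0.69 to −0.56, limma adjusted p 0.051 to 0.15), and that of *ND2* without any library other than replicate 3 of shRNA-NC in medium, replicate 1 of shRNA-*Ddx5* in medium or replicate 1 or 3 of shRNA-NC with cytokines (log2 −0.72 to −0.53, limma adjusted p 0.053 to 0.18).

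The nuclear members raised by cytokines in shRNA-NC were *Ndufb6*, *Uqcrq*, *Uqcrfs1* and *Cox5a*, and those lowered were *Ndufs1* and *Sdha*. *Uqcrq*, a small subunit that helps bind ubiquinone, was at 54.4, 42.9 and 38.1 FPKM in medium and 59.1, 78.6 and 81.2 with cytokines, a log2 change of 0.68 ± 0.20 (SE, limma adjusted p = 0.021). *Ndufb6* and *Uqcrq* also rose in shRNA-*Ddx5*, by 0.58 and 0.64. Each of the 6 nuclear calls in shRNA-NC was lost without at least 2 of the 12 libraries. The counts of this comparison depended on the scaling and on single libraries. In shRNA-NC, 9 members of both origins rose and 2 fell, and under quantile normalization 5 rose and 20 fell. The count of 11 became 7 without replicate 2 of either shRNA-NC group and 6 without replicate 3 of shRNA-NC with cytokines. In shRNA-*Ddx5*, 8 rose and 3 fell, and under quantile normalization 5 rose and 18 fell. The count of 11 became 0 without replicate 3 of shRNA-*Ddx5* in medium or without replicate 1 of shRNA-*Ddx5* with cytokines, 1 without replicate 2 of either, 5 without replicate 3 of shRNA-*Ddx5* with cytokines, and 23 without replicate 1 of shRNA-*Ddx5* in medium.

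Promoters of nuclear subunit genes are known for binding sites of nuclear respiratory factor 1 (NRF-1) and of the ETS family factor GABP, also called NRF-2. The RefSeq promoters of assembly GRCm38.p6, from 250 bases before to 50 after the start, were searched on both strands for the letters GCGCA, any base and GCGC (NRF-1) and for CCGGAAG (ETS), counting a promoter with both under each. A promoter was matched for 70 of the 86 nuclear members. The NRF-1 letters occurred in 24.3% of these 70, in 12.6% of 8927 tested genes with a promoter and in 5.2% of all 27025 genes with a promoter. The ETS letters occurred in 24.3%, 21.7% and 9.9%. Counted over all 32851 promoters, since a gene can have several, the shares were 4.6% and 8.9%. Of the 31 matched members raised in both media, 6 (19.4%) held the NRF-1 letters and 11 (35.5%) the ETS letters, and of the 24 raised in neither, 33.3% and 20.8% did. These shares are descriptions and were not tested.

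The 250 bases before the start are shown for the 2 members with the largest mean rise among those raised in both media whose upstream bases held a motif, and for the member that fell. *Ndufa5*, an accessory subunit of the matrix arm chosen after its values were seen, rose by 0.72 and 0.91. The positions are those of the same sequence in GRCm39, and capitals mark the motif.
*Ndufa5*, chr6:24527690-24527939, minus strand, NRF-1 letters beginning 26 bases before the start: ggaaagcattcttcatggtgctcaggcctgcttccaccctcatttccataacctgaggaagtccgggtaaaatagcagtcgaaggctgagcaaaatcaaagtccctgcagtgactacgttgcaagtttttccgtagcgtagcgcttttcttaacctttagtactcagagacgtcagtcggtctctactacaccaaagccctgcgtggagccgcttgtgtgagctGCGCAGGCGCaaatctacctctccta
*Ndufb7*, chr8:84293137-84293386, plus strand, ETS letters beginning 20 bases before the start: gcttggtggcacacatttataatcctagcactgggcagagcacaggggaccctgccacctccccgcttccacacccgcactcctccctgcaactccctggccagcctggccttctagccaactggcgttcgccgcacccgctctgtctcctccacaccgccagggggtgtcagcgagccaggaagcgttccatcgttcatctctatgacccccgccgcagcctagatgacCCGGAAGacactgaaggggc
*Cox7a2l*, chr17:83821763-83822012, minus strand, neither motif: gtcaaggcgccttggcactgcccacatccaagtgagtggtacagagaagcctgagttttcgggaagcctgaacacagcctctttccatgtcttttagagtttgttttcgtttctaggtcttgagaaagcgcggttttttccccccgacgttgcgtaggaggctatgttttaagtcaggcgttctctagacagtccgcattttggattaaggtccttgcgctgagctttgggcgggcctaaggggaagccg

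Of the carrier and subunits that the symbols of the rule do not reach, 3 were tested, of which *Cycs* and *Cyc1* rose in both media. *Cycs*, cytochrome *c*, which carries electrons from complex III to complex IV, was at 24.4, 21.1 and 19.2 FPKM in shRNA-NC and at 55.1, 42.7 and 50.3 in shRNA-*Ddx5* in medium, and at 37.4, 31.3 and 33.7 against 60.1, 59.8 and 54.4 with cytokines. Its groups did not overlap, and its log2 changes were 1.16 ± 0.11 (SE, limma adjusted p = 1.7e-05) and 0.75 ± 0.11 (SE, limma adjusted p = 3.0e-04). *Cyc1*, the cytochrome c1 subunit of complex III, rose by 0.62 ± 0.18 and 0.64 ± 0.18 (SE, limma adjusted p = 0.014 and 0.013). *Cox4i1*, the common form of the largest nuclear subunit of complex IV, did not pass, with log2 values of 0.31 ± 0.14 and 0.27 ± 0.14 (SE). *Cox4i2*, the hypoxia-linked form, had a mean of 0.0537 FPKM and was not tested.

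Assembly factors, which help to build the complexes without staying in them, are set here beside a background of 25.3% of all genes tested up and 21.7% down in medium, and 23.5% and 22.1% with cytokines. Of 15 for complex I, 6 rose and 1 fell in medium, and 2 rose and 1 fell with cytokines. Of 4 for complex II, 3 rose in medium and 1 with cytokines. Of 5 tested for complex III, 1 rose in medium and 2 with cytokines. Of 21 tested for complex IV, 12 rose in each medium and none fell. Of 5 for complex V, 2 rose in medium and none with cytokines. The largest medians were those of complex II factors in medium (0.51) and complex IV factors with cytokines (0.51).

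Most members are short, and among other genes the share that fell differed with gene length. The tested nuclear members had a median length of 793.5 bases against 3280 for all genes tested, and library fragments were selected at 370 to 420 bp. Of 1563 other genes under 1000 bases, 312 rose in medium and 300 (19.2%) with cytokines, while of the 44 nuclear members of that length 20 (45.5%) and 24 (54.5%) did. Between 1000 and 3000 bases, 32.2% and 29.2% of other genes rose, and 64.5% and 61.3% of 31 members. Over 3000 bases, 22.1% and 20.8% of other genes rose, and 2 of 3 members in each medium. From short to long, 7.74%, 14.6% and 29.4% of other genes fell in medium, and 6.59%, 16% and 29.6% with cytokines. Their median log2 changes in medium were 0.11, 0.14 and −0.06. After the trend with length had been removed from each library, 30 nuclear and 4 mitochondrial members rose in medium, and 32 nuclear members rose with cytokines while 2 mitochondrial members fell.

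Several nuclear members varied widely between replicates. The ratio of the highest to the lowest value among the shRNA-NC libraries in medium had a median of 1.37 over the 78 tested nuclear members. Of the 10 members with the widest range, replicate 3 was the lowest library in 9. *Atp5k*, a small membrane subunit of ATP synthase and the widest of all, named after its values were seen, was at 128, 72.8 and 5.62 FPKM, a ratio of 22.8. It lay at 164, 49.0 and 36.2 in shRNA-*Ddx5* in medium, and neither of its knockdown values, 0.76 ± 0.93 and 1.26 ± 0.93 (SE), passed. Leaving out that library and replicate 1 of shRNA-NC with cytokines gave 44 nuclear members up and 1 down in medium and 43 up and 1 down with cytokines.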

How the data were processed

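RNA-seq was made from 12 ATDC5 samples (4 groups of 3, assigned from the titles and treatment labels). The deposited values are FPKM, computed by the authors from fragments assigned to genes. The submitters' notes list HISAT2 2.0.5, featureCounts 1.5.0-p3, DESeq2 1.20.0, GATK 3.7 and the build mm10, whereas the coordinates in the table are those of GRCm39, which are printed here. The number of per-sample columns not used was 0. FPKM multiplied by gene length was used to recover fragments for depth, shares and some alternatives. The depth in the FPKM was 1.064 to 1.076 times the gene-assigned fragments in shRNA-NC and 0.986 to 1.022 times in shRNA-*Ddx5* in medium. With cytokines it was 0.973 to 1.037 and 0.957 to 0.982 times. The study's legends describe replicates of the ATDC5 experiments as independent experiments. With 1 line per shRNA, p-values measure the spread between these libraries and not between lines. DESeq2 needs counts and was not run.

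With limma 3.58.1 in R 4.3.3, 4 group means were fitted to log2(FPKM + 1), with trended empirical Bayes shrinkage, for 12368 genes with at least 1 FPKM in at least 3 libraries. Fold changes on this scale understate those of low genes. Tests were two-sided and adjusted (Benjamini-Hochberg) over all genes tested, with a threshold of 0.05. Alternatives were other pseudocounts, filters, scalings and fits, leaving out each library, and a replicate block, and 3 more were chosen after seeing the data. In simulated data with 200 changed genes, 35% of 1.5-fold and 73% of 2-fold changes were recovered for knockdown in medium (12027 genes). For knockdown with cytokines (12013 genes) 31% and 64% were recovered. Of the genes tested in the data, a far larger share was called, 47.0% and 45.6%. The adjustment depends on that share, so the simulated rates do not describe the tests reported here. Nuclear copies were found with blastn 2.17.0 at 90% identity or more in GRCm39.

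Members and lists were chosen with earlier results of these data known. Named were all mitochondrial members, per complex the nuclear members with the largest rise and fall past the threshold in each knockdown comparison and the most abundant, members of isoform families, members past the interaction threshold, and up to 3 members of each other list. Sequences of the proteins were not used here. The single values of 1 member are not reported here, while counts and medians over the members include it.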

Additional observations from a re-analysis of the deposited data

Results flagged for a closer look

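*COX2*, the mitochondrially encoded subunit II of cytochrome *c* oxidase, responded differently to knockdown in the 2 media, by the test of the difference itself. The knockdown change was 0.68 ± 0.16 in medium and −0.30 ± 0.16 with cytokines (log2, SE), and the difference was −0.98 (SE 0.23, limma adjusted p = 0.025, 95% interval −1.48 to −0.47). The 3 control libraries in medium (55.1, 54.1 and 51.4 FPKM) were below the other 9 libraries, and with cytokines the control and knockdown libraries overlapped. Over 23 alternatives the difference lay between −1.12 and −0.77, with adjusted p from 0.013 to 0.074, and it passed the threshold in 16. It did not pass without replicate 2 of shRNA-NC in medium, replicate 1 or 3 of shRNA-NC with cytokines or replicate 2 or 3 of shRNA-*Ddx5* with cytokines (log2 −1.0 to −0.87, limma adjusted p 0.052 to 0.072). The same held with no filter on low values. It held too without both control libraries that stood apart (−0.85, limma adjusted p = 0.074). The gene lies inside the stretch with a nearly perfect nuclear copy, and the part of that copy in the value was not tested. Groups held 3 libraries each, so single libraries were not tested for standing apart.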

How the results depend on the processing

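Members past the threshold numbered 51 for knockdown in medium, 46 for knockdown with cytokines, 11 for cytokines in shRNA-NC, 11 for cytokines in shRNA-*Ddx5* and 1 for the interaction. Leaving out each library in turn gave 34 to 52, 31 to 55, 6 to 13, 0 to 23 and 0 to 3. A fit of the libraries of the comparison alone gave 33 in medium, 3 for cytokines in shRNA-NC and 22 in shRNA-*Ddx5*. For cytokines in shRNA-NC the count was 6 with no filter and 25 under quantile normalization. For cytokines in shRNA-*Ddx5* it was 2 with no filter, 23 under quantile normalization, 17 under scaling to the nuclear sum, 19 after the length correction and 27 without both deviating control libraries. The interaction count was 0 with no filter, 2 under quantile normalization, 3 with voom precision weights and 2 without both deviating control libraries. Those last 2 were *ND1* and *COX3*, while *COX2* did not pass there. The cause of these differences was not tested.

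Under quantile normalization the knockdown value of *Ndufs7* in medium, called in the main fit, turned direction (−0.00747). So did the cytokine value of *Atp5o* in shRNA-NC, not called in the main fit (−0.28, limma adjusted p = 0.011). Of member values past the threshold, taken over all alternatives, 2394 stayed past it in the same direction and 483 did not pass. Another 2 turned, that of *Ndufs7* among them and that of *Atp5o* not.

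The fit with the replicate number as a block gave 44, 41, 9, 6 and 1 members past the threshold. The main fit did not treat the numbers as pairs. Deviations of same-numbered libraries of the medium groups correlated at 0.0425 to 0.448, over 0.1 in 2 of 3 pairs, and 4 of the 6 libraries correlated best with their own number. The mean correlation there was 0.27 for the same number and −0.14 for different numbers. Deviations within a group sum to 0, so the second value largely follows from the first. In the other pairs of groups 0 to 2 of 6 libraries correlated best with their own number. Same-numbered libraries of shRNA-*Ddx5* in medium and shRNA-NC with cytokines correlated at −0.39 to −0.20.

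The knockdown difference in mitochondrial share was 0.600 percentage points in medium (0.463 to 0.781 when each library was left out) and −0.424 with cytokines (−0.635 to −0.0762), where replicate 1 of shRNA-NC set much of the value. The difference in the excess of mitochondrial over nuclear members was 0.18 in medium (0.02 to 0.41) and −0.61 with cytokines (−0.76 to −0.40). Counting error limits *ATP8*, *ND3* and *ND4L*, with median fragments of 2, 55.5 and 79 per library.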

Other observations

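Other nuclear genes whose products work in mitochondria were counted in the same fit. Of 78 proteins of the mitochondrial ribosome, which translates the 13 mitochondrial mRNAs, 48 rose and 1 fell on knockdown in medium and 35 rose and 0 fell with cytokines, with median log2 changes of 0.37 and 0.33. Of 13 enzymes of the tricarboxylic acid cycle, 10 rose in medium and 9 with cytokines, and none fell. By size of change in medium they were led by *Mdh2* (malate dehydrogenase, 0.83 ± 0.09), *Idh3a* (a subunit of isocitrate dehydrogenase, 0.74 ± 0.09) and *Cs* (citrate synthase, 0.69 ± 0.08), each with its SE and past the limma threshold. The background was 25.3% up in medium and 23.5% with cytokines.

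Genes that act on mitochondrial DNA and RNA are given beside the share of all genes tested, which was 25.3% up and 21.7% down in medium and 23.5% up and 22.1% down with cytokines. Of 9 genes of mitochondrial transcription, 1 rose and 2 fell in medium, and 0 rose and 3 fell with cytokines, among them *Mterf1a*, a termination factor (−0.58 ± 0.12 and −0.72 ± 0.12, SE). Of 18 genes of mitochondrial RNA processing and stability, 3 rose and 2 fell in medium, and 5 rose and 6 fell with cytokines. *Slirp*, a protein that stabilizes mitochondrial mRNAs together with *Lrpprc*, rose in both media (1.07 ± 0.14 and 1.13 ± 0.14), and *Trmt10c*, a subunit of mitochondrial RNase P, fell with cytokines (−0.77 ± 0.16, SE, limma adjusted p = 0.0025). Of 14 genes for upkeep of mitochondrial DNA, 2 rose and 1 fell in medium, and 2 rose and 5 fell with cytokines. Of 7 tested regulators of mitochondrial biogenesis, 1 rose in medium, and 3 fell with cytokines while 0 rose.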
